A study of Mus musculus with 6 samples.

Results

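The smooth muscle contractile genes are 10 genes whose products build or switch on the contractile apparatus of smooth muscle: Acta2, Tpm1, Tpm2, Myl9, Myh11, Tagln, Cnn1, Cald1, Lmod1 and Myocd. They were chosen by gene symbol, and each of the 10 had 1 row among the 29616 genes of the deposited table. Of these, 8 reached the mean of 10 normalized counts set as the lower limit for testing, among 17442 tested genes, and Cnn1 and Myocd did not. RNA sequencing was performed on 6 libraries of C57BL/6 mouse bone cells, 3 from control mice and 3 from mice given dexamethasone, a synthetic glucocorticoid. By the methods of the study, the cells were collagenase digests of bones flushed of marrow, fixed, permeabilized and sorted for Osteocalcin, and the dexamethasone dose was 0.08 µg per g of body weight each day over 4 weeks. The treatment began at 8 weeks of age in the model of that study. The labels name the other group only as control, and the mice of both groups carried no transgene that the labels name. The 3 replicates of each group are called biological, but whether a library was 1 mouse or a pool is not given in the sources used here, so the p-values measure the spread between these libraries.

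In smooth muscle, filaments of alpha actin wrapped by tropomyosin are pulled by myosin whose regulatory light chain must be phosphorylated, and transgelin, calponin and caldesmon sit on the actin filament and modulate this pull. The genes are known for shared control by serum response factor (SRF), which binds CArG boxes in their promoters together with myocardin or the myocardin-related factors. Several members are not restricted to smooth muscle: Acta2 is used in myofibroblasts and some mesenchymal cells, and Tpm1, Tpm2, Cald1 and Myl9 are widely used in the actin cytoskeleton of cells that adhere and spread.

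The libraries held between 72596611 and 89910728 reads assigned to genes, recovered from the normalized values. The known glucocorticoid targets Sgk1 and Fkbp5 were higher after dexamethasone, by 4.25 and 4.41 on the log2 scale. Of 6 such targets, 5 were called higher, against 11.7% of all tested genes. Of 8 osteoblast markers, 7 were called lower, against 10.6% of all tested genes, and Dmp1, an osteocyte matrix gene, was called higher. Bglap, which encodes the sorting antigen Osteocalcin, was at 107 ± 12.9 normalized counts (SD, n = 3) in the control libraries and at 12.2 ± 2.80 (SD, n = 3) in the dexamethasone libraries, so the sorted marker itself moved with the groups. Fewer cells of a type and less RNA per cell cannot be told apart in such bulk libraries.

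Of the 8 tested members, Acta2, Myl9, Tpm1 and Lmod1 were called lower after dexamethasone and 0 were called higher. A gene was called when its adjusted p was under 0.05 and its log2 fold change was at least 1 in either direction (limma on log2 of the normalized count plus 1, two-sided, Benjamini-Hochberg over all tested genes). Among all tested genes, 10.6% were called lower and 11.7% were called higher, 22.3% in all. By adjusted p alone, 6 members fell (limma), against 35.2% of all tested genes, and Tpm2 rose, against 37.2%, or 72.5% in either direction. At an unadjusted p under 0.05 (limma), Tpm2 was again the only member higher. With the fold limit applied, edgeR and DESeq2 each called 0 members higher, and Tpm2 was at 0.54 and 0.55 on the log2 scale in these tests. In 6 of the 8 tested members the control and dexamethasone libraries did not overlap, against 74.7% of all tested genes. The median log2 fold change of the 8 was -1.54, with a range from -4.87 to 0.56, and the median of all tested genes was 0.000712. These counts cover the tested members only, since Cnn1 and Myocd did not pass the lower limit. The plot of every library shows the levels of all 10.

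**Figure D1:**
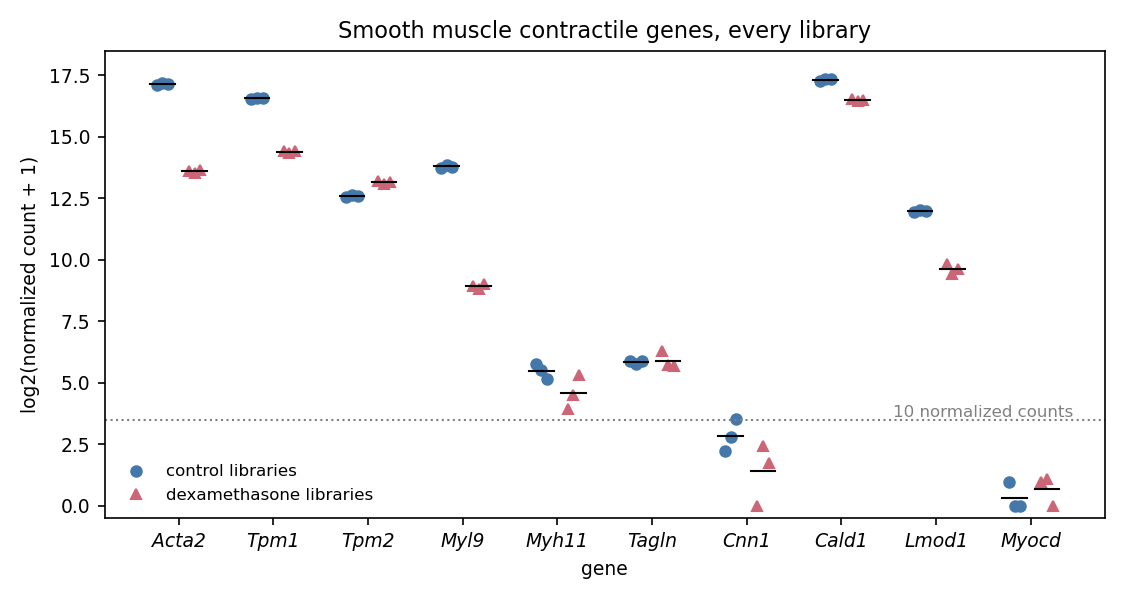
Normalized count of each smooth muscle contractile gene in each library, as log2(normalized count + 1), with circles for the 3 control and triangles for the 3 dexamethasone libraries, a black bar at each group's mean of the plotted log2 values, and a dotted line at the lower limit of 10 normalized counts. Acta2, Tpm1, Myl9 and Lmod1 lie lower in the dexamethasone libraries, Tpm2 lies slightly higher, and Cnn1 and Myocd lie under the dotted line on average.

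Acta2 (ENSMUSG00000035783) encodes smooth muscle alpha actin, the thin filament itself. In the control libraries it reached 140695, 148313 and 145745 normalized counts in replicates 1 to 3, and after dexamethasone 12483, 11939 and 12924. The 3 control libraries lay within a few percent of each other, the 3 dexamethasone libraries likewise, and the groups stood far apart. The mean went from 144918 ± 3876 (SD, n = 3) to 12449 ± 493 (SD, n = 3), an 11.6-fold lower level. The log2 fold change was -3.54 (SE 0.0392, 95% interval -3.62 to -3.46), with a limma adjusted p of 3.80e-28. Among the 17442 tested genes, Acta2 ranked 81 from the most lowered.

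The actin genes code for nearly the same protein, and their transcripts differ by scattered bases. The first 60 coding bases of each actin gene, 5′ to 3′, are shown because the reads of 1 isoform have to be told from another by such differences. They were read from GENCODE M21 transcripts on GRCm38, with capitals at bases that differ from Acta2 once aligned. Of the 60 bases shown, 9 differ from the aligned bases of Acta2 in Actg2 and 17 in each of the other genes. Gaps were neither marked nor counted, and Actg2, Actg1 and Actb have shorter coding sequences than Acta2 (1131, 1128 and 1128 against 1134 bases). Their lines therefore do not match that of Acta2 position by position.
Acta2: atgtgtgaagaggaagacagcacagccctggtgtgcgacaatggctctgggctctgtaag
Actg2: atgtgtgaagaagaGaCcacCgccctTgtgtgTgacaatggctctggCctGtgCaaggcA
Acta1: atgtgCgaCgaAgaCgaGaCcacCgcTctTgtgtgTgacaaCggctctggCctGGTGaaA
Actg1: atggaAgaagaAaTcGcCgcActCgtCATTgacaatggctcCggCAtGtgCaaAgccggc
Actb: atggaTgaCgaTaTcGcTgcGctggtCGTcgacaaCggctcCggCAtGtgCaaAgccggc

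Over the whole coding sequence, Acta2 was 84.2% identical to Actg2, 85.4% to Acta1, 82.8% to Actb and 81.5% to Actg1. All 75-base stretches of the Acta2 transcripts, 100%, occurred in no other gene of the annotation, as for the other 9 members. The same share was 98.4% for Actb and 66.5% for Actg1, so Actg1 is the actin whose counts are least certain. How reads matching several genes were counted is not given in the sources used here.

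Acta2 held 33.4%, 32.9% and 33.6% of the normalized counts of the 5 actin genes in the control libraries and 5.64%, 5.57% and 5.70% in the dexamethasone libraries. These shares did not overlap, and the exact two-sided permutation p was 0.1, the smallest that 3 against 3 libraries allow. Actb, a cytoplasmic actin, held 43.9 ± 0.244% (SD, n = 3) in the control and 74.4 ± 0.382% (SD, n = 3) in the dexamethasone libraries. Actg1, the other cytoplasmic actin, went from 21.1% to 19.2%, and Actg2, the enteric smooth muscle actin, from 1.73% to 0.785%, both as group means. The 5 genes together stood at 50.7% of their control mean after dexamethasone, and at 71.8% with Acta2 left out.

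Tpm1 (ENSMUSG00000032366) encodes a tropomyosin, a coiled coil along the groove of the actin filament that governs access of myosin. The control libraries held 95156, 98719 and 98136 normalized counts of Tpm1, and the treated ones 21799, 20459 and 21935. All 3 dexamethasone libraries lay below all 3 control libraries by a wide margin. The mean went from 97337 ± 1911 (SD, n = 3) to 21398 ± 816 (SD, n = 3), a 4.55-fold lower level, with a log2 fold change of -2.19 (SE 0.0389, 95% interval -2.27 to -2.11, limma adjusted p = 1.80e-24).

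Tpm2 (ENSMUSG00000028464), the beta tropomyosin, went the other way. It counted 6031, 6345 and 6145 (normalized) across the control libraries and 9450.3, 8774 and 9127 across the treated ones. The groups did not overlap, but the difference was under the fold limit for a call. The mean rose from 6174 ± 159 (SD, n = 3) to 9117 ± 338 (SD, n = 3), 1.48-fold, with a log2 fold change of 0.56 (SE 0.0372, 95% interval 0.49 to 0.64, limma adjusted p = 9.72e-13). It was the member with the only rise that passed the adjusted p.

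Among the 4 tropomyosin genes, Tpm1 held 61.1 ± 0.101% of the normalized counts in the control libraries and 21.9 ± 0.465% in the dexamethasone libraries (SD, n = 3 each). The share of Tpm2 was 3.87% in the control and 9.34% in the dexamethasone libraries, that of Tpm3 9.97% and 27.1%, and that of Tpm4 25.1% and 41.6%. Each of these 4 shares was without overlap between groups, with an exact two-sided permutation p of 0.1. The sum of the 4 genes stood at 61.2% of its control mean after dexamethasone, and the sum of the 3 genes other than Tpm1 stood at 122.7%. With gap positions counted in the alignment, the coding sequence of Tpm1 was 65.0% identical to Tpm2, 66.4% to Tpm3 and 58.7% to Tpm4. The sequences compared were 981 bases long for Tpm1 and 855, 858 and 747 for the others, so these values also reflect length. For Tpm3, 80.9% of the 75-base stretches occurred in no other gene.

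Myl9 (ENSMUSG00000067818) encodes the regulatory light chain of smooth muscle and nonmuscle myosin, the subunit that is phosphorylated to start contraction. Across the control libraries its level was 13769, 14814 and 14063 normalized counts, against 492, 445 and 522 after dexamethasone. No member fell further, and the highest dexamethasone library stayed far below the lowest control library. The mean went from 14215 ± 539 (SD, n = 3) to 486 ± 39.0 (SD, n = 3), a 29.2-fold lower level, with a log2 fold change of -4.87 (SE 0.0501, 95% interval -4.97 to -4.77, limma adjusted p = 8.86e-29). Myl9 ranked 26 from the most lowered of the 17442 tested genes.

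Among Myl9, Myl12a and Myl12b, which encode interchangeable light chains, Myl9 held 50.2%, 50.3% and 49.8% of the normalized counts in the control libraries and 3.83%, 3.50% and 4.05% in the dexamethasone libraries. Myl12a held 49.0 ± 0.165% and 94.9 ± 0.446% (SD, n = 3 each), with an exact permutation p of 0.1 for either gene. Myl12a itself went from 13912 to 12162 normalized counts (log2 fold change -0.19, limma adjusted p = 3.04e-05), so the 2 genes were near each other in counts in the control libraries and far apart after dexamethasone. The 3 light chain genes together stood at 45.2% of their control mean.

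**Figure D2:**
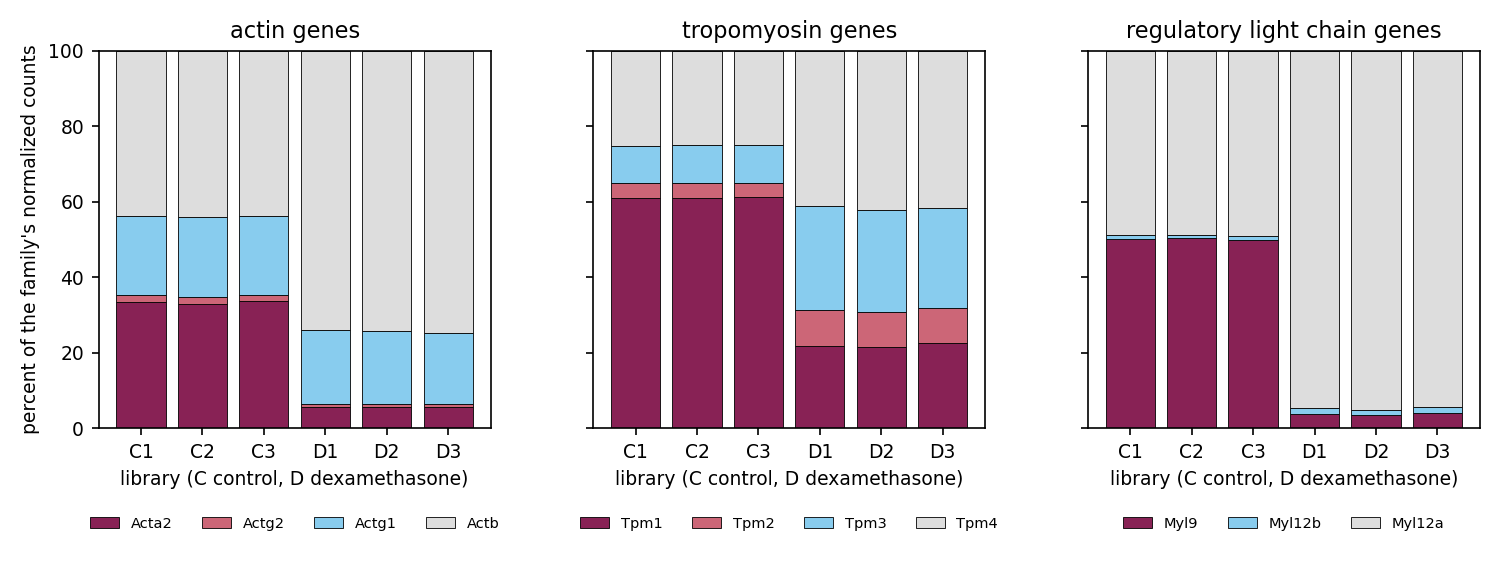
Share of the normalized counts of each family held by each gene in each library, in percent, for the actin, tropomyosin and regulatory light chain genes, with C for control and D for dexamethasone libraries. Acta2, Tpm1 and Myl9, at the foot of the bars, hold 33.3%, 61.1% and 50.1% on average in the control libraries and 5.64%, 21.9% and 3.79% in the dexamethasone libraries (Acta1, at or under 0.00786% of actin in every library, is too small to draw).

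Myh11 (ENSMUSG00000018830), the smooth muscle myosin heavy chain and the most specific marker of mature smooth muscle among the members, was low in all libraries. The control libraries contained 58, 46 and 39 Myh11 reads, the dexamethasone libraries 15, 20 and 33, or 53.2, 45.0 and 34.3 against 14.3, 21.8 and 38.4 normalized counts. Dexamethasone replicate 3 lay above control replicate 3, so the groups overlapped. The mean was 44.2 ± 9.52 (SD, n = 3) in the control and 24.8 ± 12.3 (SD, n = 3) in the dexamethasone libraries, with a log2 fold change of -0.89 (SE 0.30, 95% interval -1.51 to -0.27, limma adjusted p = 0.0102) and an exact two-sided permutation p of 0.2. Without dexamethasone replicate 1 the log2 fold change was -0.57 and the limma adjusted p 0.0767, and without control replicate 1 the adjusted p was 0.0609. Without dexamethasone replicate 3 it was -1.25 and passed the fold limit as well (limma adjusted p = 0.00056), as it did without control replicate 3, at -1.06. Myh11 made up 0.0242% of the normalized counts of Myh9, Myh10 and Myh11 in the control libraries and 0.0138% in the dexamethasone libraries, the rest being the nonmuscle heavy chains.

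Tagln (ENSMUSG00000032085) encodes transgelin, also called SM22 alpha, an actin-binding protein and an early smooth muscle marker. In normalized counts the control libraries gave 57.8, 52.8 and 57.1, and the dexamethasone libraries 76.3, 52.3 and 50.0. Dexamethasone replicate 1 was the highest of the 6 and dexamethasone replicate 3 the lowest, so the control libraries lay inside the range of the treated ones. The log2 fold change was 0.06 (SE 0.20, 95% interval -0.35 to 0.48, limma adjusted p = 0.787), and it was -0.13 without dexamethasone replicate 1 and -0.0484 with libraries scaled to the same total. Most of the gene lies under others: 67.9% of its exon bases in GENCODE M21 on GRCm38 are covered by genes on the opposite strand, Pcsk7 and Gm48529. The library kit keeps strand, but the strand setting of the counting is not given in the sources used here, and the part of this overlap in the low count of Tagln was not tested. Pcsk7 had between 2221 and 2310.3 normalized counts in the control and between 2479 and 2824 in the dexamethasone libraries, far above Tagln.

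Cnn1 (ENSMUSG00000001349), calponin 1, an actin-binding inhibitor of the myosin motor in mature smooth muscle, was counted with 4, 6 and 12 reads in control replicates 1 to 3 and with 0, 4 and 2 after dexamethasone. Dexamethasone replicate 2 reached the read count of control replicate 1, and the means of 6.70 ± 3.51 and 2.23 ± 2.18 normalized counts (SD, n = 3 each) were under the lower limit for testing. The exact two-sided permutation p was 0.2, and in a fit without the lower limit the log2 fold change was -1.46 (SE 0.63, limma adjusted p = 0.0652). Its relatives outside smooth muscle carried the family of 3 calponin genes. Cnn2 held 64.5% of their normalized counts in the control and 41.2% in the dexamethasone libraries, and Cnn3 35.5% and 58.8%. These are shares of a sum, and Cnn2 was itself called lower, so a larger share of Cnn3 does not mean a higher level.

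Cald1 (ENSMUSG00000029761) encodes caldesmon, which bridges actin and myosin and has a smooth muscle form and a shorter form of other cells that a gene count cannot separate. At 159486, 166038 and 165046 normalized counts in the control libraries and 95618, 89704 and 91881 after dexamethasone, it had the highest counts of the members. The groups did not overlap, and the shift was smaller than in Acta2, Tpm1, Myl9 and Lmod1. The mean went from 163523 ± 3532 (SD, n = 3) to 92401 ± 2991 (SD, n = 3), 1.77-fold lower, with a log2 fold change of -0.82 (SE 0.0443, 95% interval -0.92 to -0.73, limma adjusted p = 1.52e-14), under the fold limit for a call.

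Lmod1 (ENSMUSG00000048096) encodes leiomodin 1, the smooth muscle protein that nucleates actin filaments. Control libraries 1 to 3 had 3972, 4167 and 4017 normalized counts of Lmod1, and dexamethasone libraries 1 to 3 had 896, 691 and 798. The dexamethasone libraries all lay below the control libraries and were more spread in proportion, with a coefficient of variation of 12.9% against 2.52%. The mean went from 4052 ± 102 (SD, n = 3) to 795 ± 102 (SD, n = 3), 5.10-fold lower, with a log2 fold change of -2.36 (SE 0.0631, 95% interval -2.49 to -2.23, limma adjusted p = 7.84e-21).

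Myocd (ENSMUSG00000020542) encodes myocardin, the SRF coactivator of cardiac and smooth muscle that drives the other genes of the set. Only 1, 0 and 0 reads fell on it in control replicates 1 to 3, and 1, 1 and 0 after dexamethasone. Every library was at or under 3 reads, the limit that a count of 0 allows, so no fold change is given. That limit covers counting error only.

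**Figure D3:**
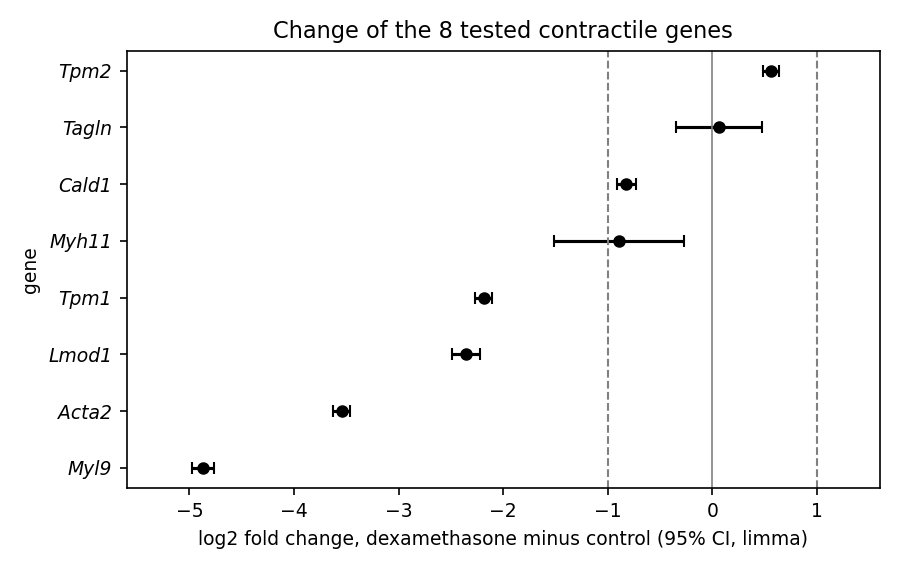
Log2 fold change of the 8 tested smooth muscle contractile genes, dexamethasone minus control, on the log2(normalized count + 1) scale, with points for the limma estimate, bars for its 95% interval and dashed lines at the fold limit of 1 in either direction. Myl9, Acta2, Lmod1 and Tpm1 lie left of -1 with narrow intervals, Cald1 and Tpm2 lie inside the limits on opposite sides of 0, and the intervals of Myh11 and Tagln are the widest.

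To compare the genes with each other, normalized counts were divided by the length of the merged exons in GENCODE M21. Merged exons take in every annotated transcript, with 12041 bases for Cald1, 6485 for Tpm1 and 2196 for Acta2. Which transcripts the cells used was not measured, so the order depends on this choice of length. Per kilobase of exon, the control level was highest for Acta2, at 65992 ± 1765, followed by Tpm1 at 15009.6 ± 295, Cald1 at 13581 ± 293 and Myl9 at 12233 ± 464 (SD, n = 3 each). Tpm2 followed at 2122 and Lmod1 at 1026, then Tagln at 28.1, Myh11 at 5.81, Cnn1 at 2.45 and Myocd at 0.0476 normalized counts per kilobase. No neighbours in this order overlapped between libraries. The members therefore fell into 6 genes at or above 1026 and 4 at or under 28.1 normalized counts per kilobase in the control libraries. Of the defining smooth muscle markers, 3, Myh11, Cnn1 and Myocd, were in the low set, and Lmod1 was not. For Tagln, 67.9% of exon bases lie under opposite-strand genes, and the part of this in its low level was not tested.

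After dexamethasone the order per kilobase was led by Cald1, at 7674 ± 248, and Acta2 followed at 5669 ± 225 (SD, n = 3 each). Tpm1 at 3299.6 ± 126 and Tpm2 at 3134 ± 116 came next, and their libraries overlapped. Myl9 was at 419 ± 33.6 and Lmod1 at 201 ± 25.9, and Tagln, Myh11, Cnn1 and Myocd kept the low end at 30.0, 3.27, 0.815 and 0.106, where Cnn1 and Myocd overlapped. Among the 16954 tested genes with an exon length, Acta2 moved from rank 23 to rank 503 by level per kilobase, Myl9 from 203 to 7262, Tpm1 from 157 to 1019 and Tpm2 from 1564 to 1096. The 10 members together made up 0.553 ± 0.00417% of all normalized counts in the control and 0.162 ± 0.00188% in the dexamethasone libraries (SD, n = 3 each), and Acta2 alone 0.186% and 0.0148%.

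**Figure D4:**
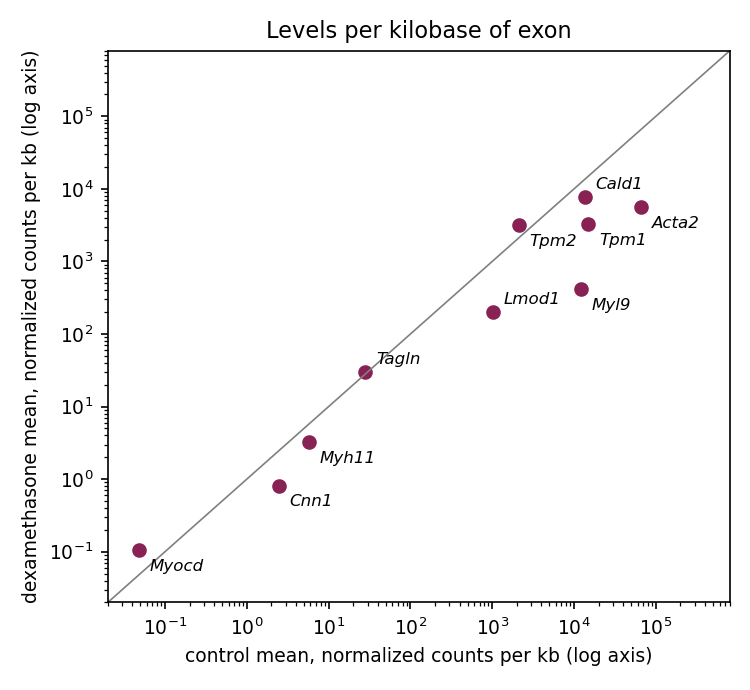
Mean level of each of the 10 genes in the control libraries (x) and the dexamethasone libraries (y), in normalized counts per kilobase of exon on log axes, with the grey line marking equal levels. Acta2, Myl9, Tpm1 and Lmod1 lie well below the line, Cald1 slightly below and Tpm2 slightly above it, and Tagln, Myh11, Cnn1 and Myocd sit at or under 30.0 on both axes.

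Across all tested genes the median coefficient of variation was 4.49% among control and 5.46% among dexamethasone libraries. It was 2.67% and 3.96% for Acta2, 1.96% and 3.81% for Tpm1, and 3.79% and 8.02% for Myl9. Lmod1 had 2.52% and 12.9%, above the median among the dexamethasone libraries, and Myh11, with the fewest reads of the tested members, had 21.5% and 49.6%.

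Promoter sequences were taken from RefSeq on GRCm38.p6 and searched over the 250 bases before the annotated start. Of the 10 members, 7 had an entry, with 8 promoters in all, and Tagln, Myh11 and Myocd had none. A CArG box, the SRF motif, was found without mismatch in 1 of the 8, Myl9, and in 1.47% of 32851 promoters. With 1 G or C among the central bases it was found in 2 of the 8, Myl9 and Acta2, and in 7.24% of all promoters. Both strands were searched for all motifs. The Myl9 promoter is shown, on the plus strand, because Myl9 fell furthest. Both CArG-type matches are in capitals, 161 and 99 bases before the RefSeq start. GENCODE M21 places the start 44 bases further upstream, and the printed stretch stops there, 45 bases before the RefSeq start.
Myl9, chr2:156775214-156775419: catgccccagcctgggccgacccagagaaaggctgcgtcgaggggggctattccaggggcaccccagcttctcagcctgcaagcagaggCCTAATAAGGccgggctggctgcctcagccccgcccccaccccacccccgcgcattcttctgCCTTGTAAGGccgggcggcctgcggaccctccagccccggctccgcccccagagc

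The Acta2 matches lie 84 and 34 bases before the RefSeq start on the minus strand, and are shown in capitals within 30 bases each. GENCODE M21 places the start of Acta2 217 bases further upstream, so these bases lie inside the transcript by that annotation.
Acta2, chr19:34255438-34255467: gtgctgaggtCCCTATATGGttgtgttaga
Acta2, chr19:34255388-34255417: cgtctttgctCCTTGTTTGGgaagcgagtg

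The MCAT motif, CATTCC on either strand, was present in 4 of the 8 promoters, those of Acta2, Tpm1, Cald1 and Lmod1, and in 12.64% of all promoters. The matches of Acta2 and Tpm1 lie inside the gene by the GENCODE M21 annotation. The Lmod1 promoter, on the plus strand, carried it 130 bases before the RefSeq start, in capitals, and no CArG-type match. Its printed stretch stops 7 bases before that start, at the start by GENCODE M21. The full glucocorticoid response element, a palindrome of the half-site AGAACA with 3 free bases between, was in 0 of the 8 promoters and in 3 of all promoters, and the half-site alone was in 1 of the 8, Acta2, and in 16.08% of all. By GENCODE M21 the half-sites of Acta2 also lie inside the gene. A match is a description of the letters in this window, and nothing about binding was measured.
Lmod1, chr1:135324563-135324806: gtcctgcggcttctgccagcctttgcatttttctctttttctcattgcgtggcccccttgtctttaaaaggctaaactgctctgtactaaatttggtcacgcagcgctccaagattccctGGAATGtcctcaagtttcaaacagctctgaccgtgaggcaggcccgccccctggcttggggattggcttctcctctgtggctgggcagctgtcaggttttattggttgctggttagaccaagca

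The other genes of the contractile system were taken from lists, and each count is set beside the background of 11.7% called higher and 10.6% called lower. Of 10 tested isoforms of actin, tropomyosin, calponin and transgelin outside the members, Tagln2 was called higher, 4 were called lower, and the median log2 fold change was -0.34. Without control replicate 2, 2 of these isoforms were called higher. The 4 were Actg2 at -2.12, Cnn2 at -1.83, Acta1 at -1.56 and Actg1 at -1.11. Among the abundant isoforms, Actb was at -0.22 (limma adjusted p = 0.000315) and Tpm4 at 0.02 (limma adjusted p = 0.590), its sign turning to -0.0918 when libraries were scaled to the same total (limma adjusted p = 0.00251). Tagln2, the transgelin of nonmuscle cells, was at 1.21 (SE 0.0353, limma adjusted p = 4.73e-20), while Tagln itself did not pass the test.

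Among 6 tested myosin heavy and light chains outside smooth muscle, 0 were called higher and Myl6b, at -1.83, was called lower (limma). By adjusted p alone, 1 rose and 5 fell (limma), against 37.2% and 35.2% of all tested genes. The numbers were the same at an unadjusted p under 0.05. With the fold limit applied as well, edgeR called 0 higher. Myh9, the main nonmuscle heavy chain, was at -0.12 (limma adjusted p = 0.0403), Myh10 rose by 0.62, Myl6, the essential light chain, was at -0.59, and Myl12a was at -0.19. The heavy chains that carry most of the counts thus moved by less than the fold limit.

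Of 15 tested genes of light chain phosphorylation, 1 was called in each direction and the median was -0.08. Mylk, the myosin light chain kinase, went from 15795 to 5608 normalized counts (log2 fold change -1.49, SE 0.0371, limma adjusted p = 1.67e-21). Prkg1, a cyclic GMP-dependent kinase that relaxes smooth muscle, went from 196 to 917 (log2 fold change 2.22, SE 0.0759, limma adjusted p = 1.32e-18). Among the most abundant genes of the list, Rock2, a kinase that inhibits the light chain phosphatase, was at 0.29, and Ppp1cb, the catalytic subunit of that phosphatase, was at -0.33 on the log2 scale.

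Of 17 tested regulators around SRF and myocardin, 2 were called in each direction and the median was -0.13. By adjusted p alone, 4 rose and 11 fell (limma), against 37.2% and 35.2% of all tested genes. At a mean of at least 100, 1 was called higher and 2 lower, and by quantile scaling 1 higher and 3 lower. Srf itself went from 5360.3 to 3962 normalized counts (log2 fold change -0.44, limma adjusted p = 6.47e-09). Mrtfa, which encodes a myocardin-related factor, was at 0.34 (limma adjusted p = 4.04e-08), and Mrtfb at -0.03 (limma adjusted p = 0.557). Mef2c, a muscle transcription factor, and Tgfb1i1, an SRF-associated focal adhesion protein, were called lower at -1.52 and -1.12, and Klf5 and Csrp2 were called higher at 1.504 and 1.12. Among the most abundant of the list, Prrx1 was at -0.86, Csrp1 at -0.83, Klf4 at -0.44 and Mef2a at -0.09.

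Of 17 tested further smooth muscle genes, 9 were called lower and Mustn1, at 2.29, was called higher, with a median of -1.10. Npnt, a matrix ligand, fell by 2.18 on the log2 scale, from 48791 to 10759.7 normalized counts. Its receptor chain Itga8 was at -1.72 and the junctional membrane protein Jph2 at -1.34. The intermediate filament gene Synm and the Z-disc adaptor Ldb3 were both at -2.51. Pgm5, an adherens junction protein, was lowest at -3.995 (SE 0.17, limma adjusted p = 1.34e-16). Smtn, smoothelin, rose by 0.51 (limma adjusted p = 1.18e-10), and Des, desmin, by 0.17 (limma adjusted p = 0.0257). The plot of the lists sets these genes beside the members.

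**Figure D5:**
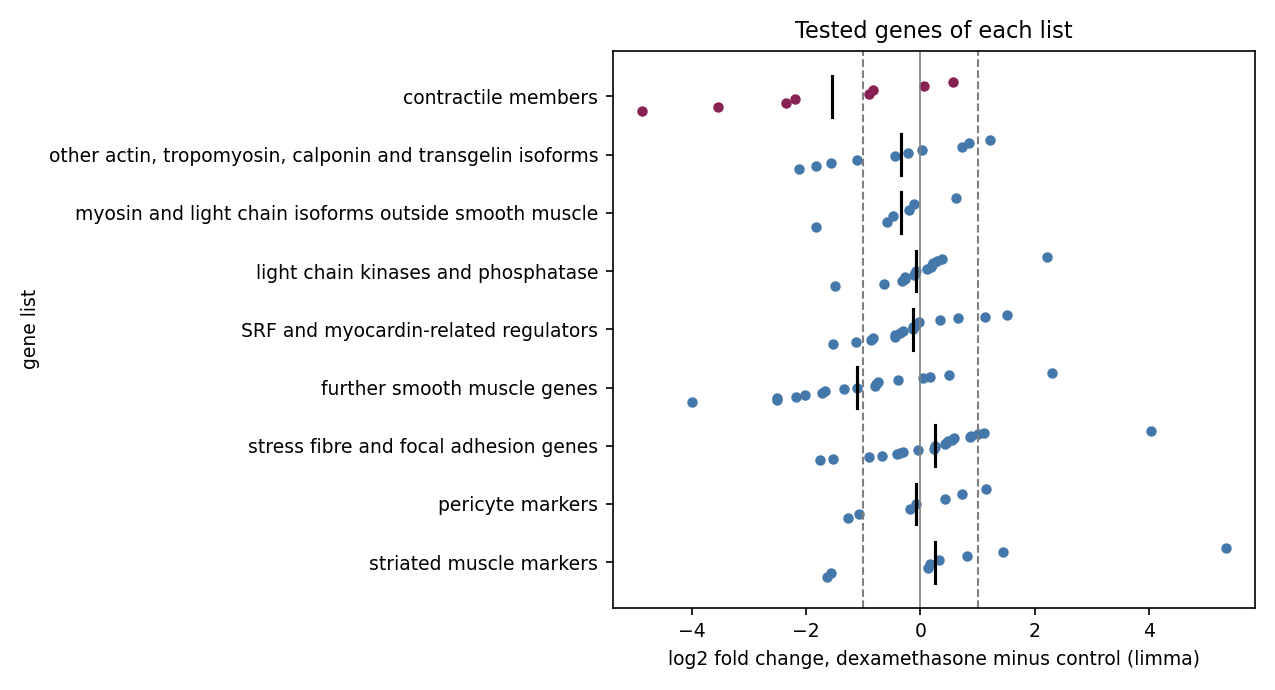
Log2 fold change (limma, dexamethasone minus control) of every tested gene in each list drawn, with 1 point per gene, a black bar at the list's median and dashed lines at the fold limit of 1 in either direction. The contractile members and the further smooth muscle genes have medians of -1.54 and -1.10, and the other lists drawn have medians between -0.34 and 0.25 (the osteoblast markers, with a median of -1.87, and the glucocorticoid targets, with 2.95, are not drawn).

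Markers of other contractile cells were counted beside the members. Of 11 pericyte markers, 7 were tested, Cox4i2 was called higher, Notch3 and Mcam were called lower, and the median was -0.08. The call of Cox4i2 was lost without control replicate 3 and without dexamethasone replicate 1, leaving 0 called higher, and the call of Mcam without dexamethasone replicate 2, at -0.94, leaving 1 called lower. The summed normalized counts of the pericyte list ranged from 31565 to 33417 in the control and from 31288 to 34709 in the dexamethasone libraries, most of them from Pdgfrb (log2 fold change -0.08, limma adjusted p = 0.0849) and Cspg4 (0.43, limma adjusted p = 5.64e-10). The defining pericyte marker Rgs5 was at 12.3 ± 0.555 and 21.1 ± 3.16 normalized counts (SD, n = 3 each), and Abcc9 at 0.918 and 0.999. Of 20 striated muscle markers, 8 were tested, with 2 called in each direction and a median of 0.25. Their summed normalized counts ranged from 521 to 589 in the control and from 1010.5 to 1151 in the dexamethasone libraries. Tnnt2, which had the largest rise of the list (log2 fold change 5.33), is part of this sum. The defining striated markers Ckm, Myh4 and Tnnt3 had means of at most 17.4 normalized counts in either group. The part of cells of other types in the levels of the members was not tested.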

How the data were processed

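Poly(A) RNA libraries (KAPA Stranded mRNA-Seq Kit, NovaSeq) were aligned and counted per gene by the authors with STAR 2.7.10a on GRCm39, per the submitters' processing notes. The deposited values are a signal: gene counts divided by DESeq2 1.36.0 size factors by the authors. The strand setting and annotation release are not given in the sources used here. All values (100%) gave whole reads after division by the step of 1 read, which gave the depth. The tolerance was 0.001 of a read, and it widened in proportion to the count for abundant genes. Replicate libraries differed by more than sampling noise (chi-square per degree of freedom 3.52 to 29.6). Columns not used: 0.

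Ensembl identifiers were matched to symbols in GENCODE M21 for 28087 genes. The 3 control and 3 dexamethasone libraries were compared with limma 3.58.1 in R 4.3.3, with a mean-variance trend, on log2(normalized count + 1) without covariates, and genes averaging under 10 were left out. On data simulated from these libraries over 17233 genes, limma recovered 188 of 189 changed genes and called 1 unchanged gene. The simulation changed 200 genes, each well beyond the fold limit, whereas 3894 genes were called in the data. Recovery of changes near the fold limit, or with so many genes changed, was therefore not tested. Alternatives were count tests of the recovered reads (edgeR 4.0.16, DESeq2 1.42.0), other pseudocounts, filters and scalings, a replicate block and leaving out each library. Exact permutation tests used scipy 1.17.1. The members and lists were chosen with earlier results of these data known. Named were the 10 members and the 4 tested genes of highest mean in each other list, apart from items that are not reported here. Other genes were named after their values were seen: Actg2, Acta1, Tpm3, Cnn3, Tagln2, Myl6b, Myl12b, Mylk, Prkg1, Srf, Mrtfa, Mrtfb, Mef2c, Tgfb1i1, Klf5, Csrp2, Mustn1, Synm, Ldb3, Pgm5, Des, Cox4i2, Bglap, Rgs5, Abcc9, Ckm, Myh4, Tnnt3, Tes, Pxn, Palld and Fhl1, together with the overlapping genes Pcsk7 and Gm48529. GRCm38 sequences serve as context, since the counts were made on GRCm39, and no coordinates of the counts are given.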

Additional observations from a re-analysis of the deposited data

How the results depend on the processing

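Acta2, Myl9, Tpm1, Lmod1, Cald1 and Tpm2 kept their direction and an adjusted p under 0.05 in 17 of 17 settings, with log2 fold changes from -3.66 to -3.51, -5.00 to -4.81, -2.31 to -2.15, -2.48 to -2.26, -0.94 to -0.80 and 0.36 to 0.59. Scaling every library to the same total moved the median of all tested genes to -0.11, and differences under that scaling are read against this shift. Myh11 had an adjusted p from 0.00056 to 0.0847, under 0.05 in 13 of 16 settings, and was called at -1.003 under the same total. Leaving out 1 library gave Myh11 values from -1.25 to -0.57. Tagln was at -0.0484 under the same total (limma adjusted p = 0.836) and between -0.13 and 0.17 with 1 library left out, and did not pass in any of 16 settings. Tpm4 turned sign and passed the adjusted p with equal totals (-0.0918, limma adjusted p = 0.00251) and by quantile scaling (-0.0581, 0.0458), and was at -0.00373 in edgeR (adjusted p = 0.920). The causes were not tested.

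By adjusted p alone, 1 member was higher, and 6497 and 6148 of all tested genes were higher and lower. At a mean of at least 100, 1350 genes were called higher and 820 lower. The median of the tested members was -1.18 without a filter and -2.27 at a mean of at least 100, where fewer genes are tested, and from -1.73, without dexamethasone replicate 3, to -1.51 with 1 library left out. Numbers called lower were from 4 to 5 with 1 library left out. Deviations from the group means correlated at -0.0999, -0.105 and -0.0199 between same-numbered libraries. No values for differently numbered libraries stand beside these, so they do not settle whether the numbers pair the libraries. With the replicate block, 4 members were called lower and 0 higher, and Myh11 had a limma adjusted p of 0.0025. Among all tested genes, that block gave 2035 called higher and 1862 lower. Cnn1 and Myocd, tested without a filter, had adjusted p values of 0.0652 and 0.686 (limma). Cnn1, Myocd, Myh11 and Tagln had at most 80 reads in any library, and the part of depth in their results was not tested. With a pseudocount of 10, 0 pericyte markers were called higher and 1 lower, and by quantile scaling 1 lower.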

Other observations

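Of 21 tested genes of stress fibres and focal adhesions, where nonmuscle actin bundles anchor to the matrix, 3 were called higher and 2 lower, with a median log2 fold change of 0.25. By adjusted p alone, 13 of the 21 rose and 7 fell, against 37.2% and 35.2% of all tested genes. Tes, a LIM protein of focal adhesions, went from 518 ± 28.0 to 8434 ± 150.5 normalized counts (SD, n = 3 each), a log2 fold change of 4.02 (SE 0.046, limma adjusted p = 6.64e-28). Pxn, paxillin, was at 1.11 and Actn4, a nonmuscle alpha actinin, at 1.01, the latter under the fold limit in 5 alternatives, between 0.895 and 0.996. Palld, palladin, fell by 1.53 and Fhl1, a LIM protein of muscle, by 1.76. Flna, filamin A, was at -0.04 (limma adjusted p = 0.504), Tln1, talin, at 0.55 and Cfl1, cofilin, at 0.23. At the same total or after quantile normalization, 1 gene of the list was called higher.

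Among the striated muscle markers, Tnnt2, cardiac troponin T, was at 7.23 ± 4.17 normalized counts in the control and at 303 ± 17.2 in the dexamethasone libraries (SD, n = 3 each), a log2 fold change of 5.33 (SE 0.27, limma adjusted p = 4.29e-15). Neb, nebulin, a ruler of thin filaments, was at 1.45 (SE 0.11, limma adjusted p = 9.00e-12), Tnnc1, troponin C, at -1.63 and Ttn, titin, at 0.17 (limma adjusted p = 0.317).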
